A study of Mus musculus with 7 samples.

Results

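The genes described here are 35 transcription factors that mark the dorsal, intermediate and ventral domains of the developing neural tube. They were read out of an RNA-seq table of 25461 genes by their mouse gene symbols, and all 35 were found there. The data come from whole mouse embryos at embryonic day 11.5 (E11.5) of the B6C3F1 strain, 1 embryo to a library, with the tail removed for genotyping. There were 3 SLMAP3 knockout (KO) embryos, named KOAC8-6, KOAC10-5 and KOAC10-8, and 4 wild-type (WT) embryos, named KOAC8-1, KOAC10-7, KOAC9-1 and KOAC10-2. SLMAP3 is the long isoform of the sarcolemmal membrane-associated protein, and loss of it in mice is accompanied by neural tube defects. The KO allele lacks exon 3 of Slmap after excision by a CMV-driven cre that was then bred out. It removes SLMAP3 from all tissues, and leaves the shorter SLMAP1 and SLMAP2. The labels do not say which KO embryos had an open neural tube. They give no litter or sex, and the number after KOAC (8, 9 or 10) is not explained. Embryos of both genotypes share 8 and 10, and only the WT embryo KOAC9-1 has 9.

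The dorsoventral axis of the neural tube is patterned by opposing signals. Sonic hedgehog spreads from the notochord and floor plate below, while BMP and Wnt proteins come from the roof plate above. Dividing progenitors read their position as a combination of homeodomain and basic helix-loop-helix transcription factors, many of which repress one another across domain boundaries, and each domain then gives rise to its own classes of neurons, which switch on a further set of factors. The 35 genes comprised 15 factors of dividing progenitors and 20 of early neurons, and fell into 11 dorsal, 10 intermediate and 14 ventral genes. Of these, 21 were classed as having other major sites of expression in the embryo, such as dermomyotome and muscle precursors for Pax3 and Pax7 or limb and face for Msx1 and Msx2. In whole embryos a smaller number of expressing cells and less RNA in each cell cannot be told apart, and neither can the neural tube and those other sites.

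Promoters of 3 progenitor factors whose KO and WT values did not overlap, Dbx1, Nkx6-2 and Olig2, are shown because they place the genes and the motifs they carry. The sequences are those of RefSeq on GRCm38.p6, read 5′ to 3′ up to the base before the first annotated exon. Capitals mark matches on either strand to a CCAAT box (CCAAT), a GC box (GGGCGG) or a TATA box (TATAAA), and none of the 3 motifs overlaps another in them.
Dbx1, chr7:49636850-49637085, minus strand: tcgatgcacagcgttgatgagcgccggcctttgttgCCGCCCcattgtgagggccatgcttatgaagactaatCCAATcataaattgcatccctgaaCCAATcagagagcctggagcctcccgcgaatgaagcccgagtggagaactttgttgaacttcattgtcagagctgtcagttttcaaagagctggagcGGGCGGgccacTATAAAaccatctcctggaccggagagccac
Nkx6-2, chr7:139582798-139583047, minus strand: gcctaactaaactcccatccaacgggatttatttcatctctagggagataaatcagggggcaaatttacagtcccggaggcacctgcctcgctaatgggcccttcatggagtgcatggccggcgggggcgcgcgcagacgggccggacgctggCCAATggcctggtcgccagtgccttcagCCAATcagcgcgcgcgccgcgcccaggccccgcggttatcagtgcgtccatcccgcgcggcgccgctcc
Olig2, chr16:91225300-91225456, plus strand: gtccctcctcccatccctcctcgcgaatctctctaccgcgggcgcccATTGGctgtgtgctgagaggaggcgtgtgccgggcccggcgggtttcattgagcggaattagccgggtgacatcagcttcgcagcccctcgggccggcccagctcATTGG

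RefSeq promoters were found for 32 of the 35 factors, in 40 windows of 250 bases upstream of a start. The member windows were rich in CpG, with a median of 16 CpG against 6 in all promoters. A CCAAT box lay in 37.5% of the member windows and in 33.8% of all promoters, and a GC box in 57.5% against 32.7%. A TATA box lay in 17.5% against 12.4%. The homeodomain core TAATTA, the kind of site that many of these factors bind, was found in 2.5% of the member windows, that of Msx2, and in 4.84% of all promoters. These matches describe the letters of the windows and were not tested as binding sites.

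FPKM values (fragments per kilobase, scaled by the depth of the library) are per length, so levels may be compared between genes. The mean over the 7 embryos ran from 0.912 FPKM for Dbx2 to 47.9 FPKM for Msx1. Lhx2 (38.5 FPKM), Isl1 (22.8 FPKM) and Irx3 (19.96 FPKM) followed Msx1, and Mnx1 (0.990 FPKM) and Olig1 (1.03 FPKM) lay just above Dbx2. The mean normalized count of the authors for these genes ran from 82.8 for Dbx2 to 5356 for Msx1. The test was run on genes averaging 1 FPKM or more, which kept 33 of the 35 factors and 16095 genes in all. Dbx2 and Mnx1 were left out of that test and are given with their values.

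The embryos differed in ways that touch these genes. FPKM sums ran from 770063 to 861448 per embryo, and relative depth, from the steps between low FPKM values, from 0.805 to 1.202 of the average. Slmap itself (chromosome 14) had KO values of 19.6, 16.0 and 16.6 FPKM and WT values of 31.2, 23.9, 29.1 and 22.8 FPKM, without overlap. The gene value sums SLMAP3 and the isoforms that the KO allele keeps. Afp, the liver transcript alpha-fetoprotein, was under 10 FPKM in 3 embryos, KOAC10-5, KOAC10-7 and KOAC10-2, and between 255 and 376 FPKM in the other 4. The WT embryo KOAC10-2 had the highest WT value of 25 of the 35 factors, 13 of the 15 progenitor factors among them, and the KO embryo KOAC10-8 had the highest KO value of 17 factors, 12 of them progenitor factors. Values without these embryos are given beside the count of factors under the unadjusted threshold.

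Progenitor factors were higher on average in KO than in WT embryos. Among the 35 factors, the largest differences lay in the intermediate and ventral domains (Dbx1, Dbx2, Nkx6-2, Nkx2-2). That ranking depends on which genes are listed: the dorsal progenitor factor Olig3, outside the 35, had a log2 fold change of 0.60. Among neuron factors the differences were smaller and went both ways. No factor passed the threshold of an adjusted p of 0.05 in limma, where the smallest adjusted p of the 33 was 0.274, and 6 genes of all 16095 did (0.0373%). At an unadjusted p under 0.05 in limma, 9 of the 33 factors (27.3%) were higher in KO embryos, against 5.27% of all genes tested, and 0 were lower, against 6.19% of all genes. Without KOAC10-2 the 9 became 15 of 34 tested, without KOAC10-8 they became 7 of 33, and within the embryos of series 10 they became 4 of 33. Without the 3 embryos low in Afp they became 13 of 34, with KOAC8-6 and KOAC10-8 against KOAC8-1 and KOAC9-1. Dbx2 was tested in the fits of 34 and was among the 15 and the 13. The share of all genes under that threshold was not computed for these fits. Of the 9, 8 were progenitor factors (of 14 tested) and 1 was a neuron factor (of 19 tested). In 6 of the 33 factors all KO values exceeded all WT values (5.61% of all genes tested), and in 0 below (5.98% of all genes). Dbx2 made a seventh of that kind among all 35. For a single gene, an exact two-sided permutation test over the 35 ways to divide the embryos into 3 and 4 cannot go below p = 0.0571, and each of these 7 factors had that value.

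**Figure D1:**
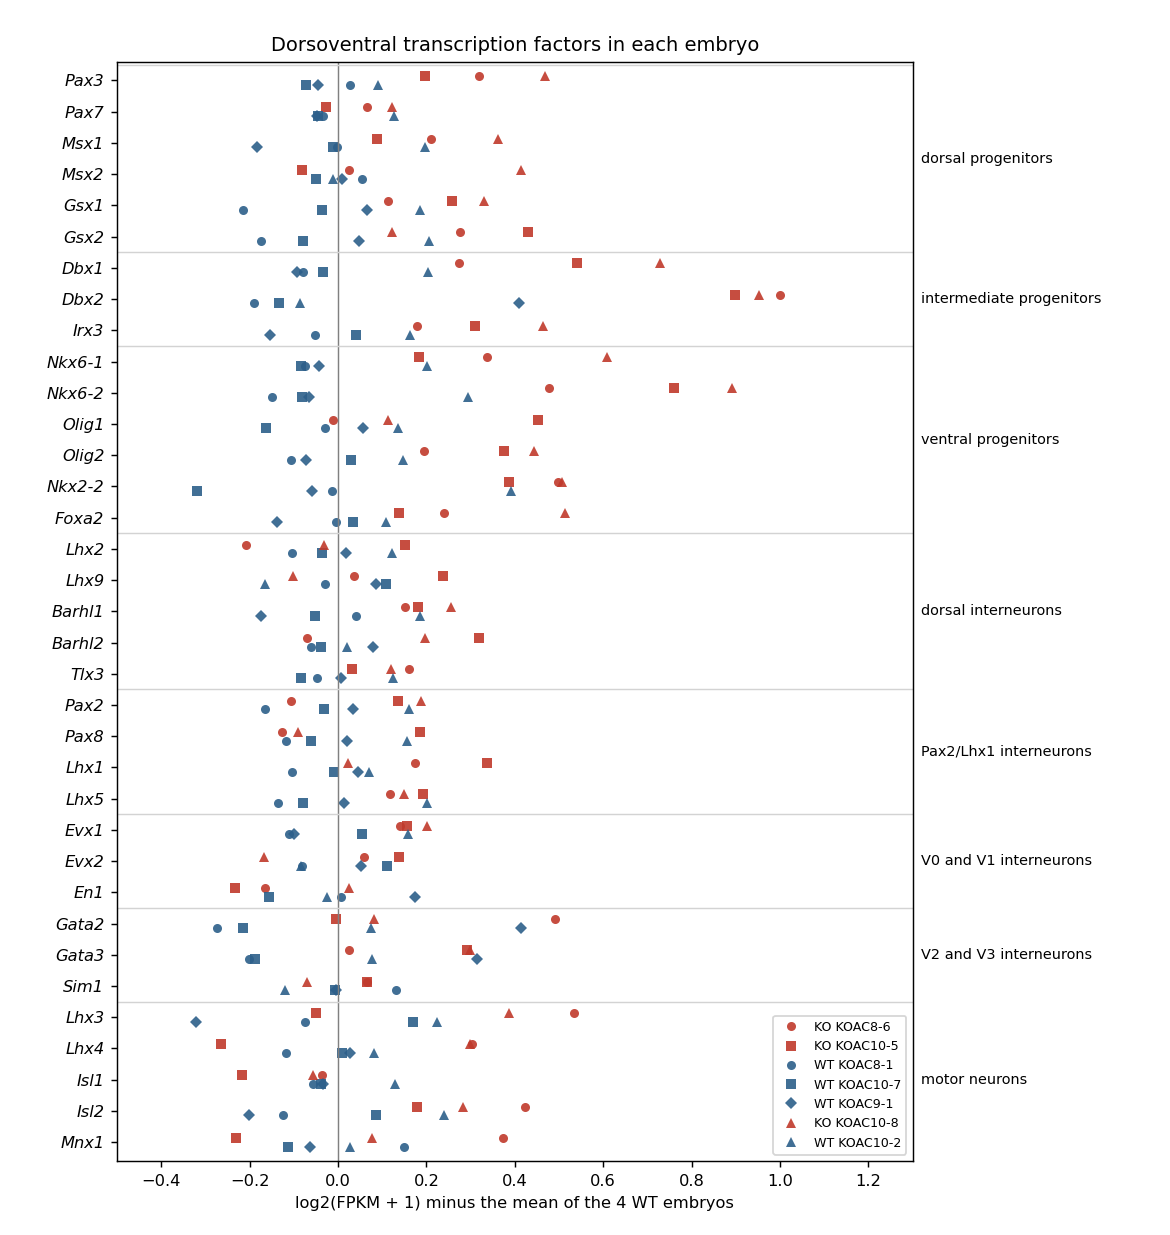
Level of each of the 35 factors in each embryo, as log2(FPKM + 1) minus the mean of the 4 WT embryos (x axis), with 1 row for each gene, grouped by class from top to bottom. KO embryos are red and WT embryos blue, each embryo with its own marker. The red points lie right of all blue points in 7 rows, all of them progenitor factors, and the Dbx2 and Nkx6-2 rows reach furthest to the right.

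The tests across all genes gave a median log2 fold change of KO against WT (on the log2(FPKM + 1) scale, which understates the change of low genes) of 0.19 over the 33 factors, beside 0.01 over all genes. It was above 0 in 29 factors and below 0 in 4. By domain, the median was 0.15 for dorsal, 0.15 for intermediate and 0.29 for ventral factors, with 1 of 11, 2 of 9 and 6 of 13 tested factors at an unadjusted p under 0.05, all higher in KO. By stage, it was 0.31 for progenitor factors, with 14 of 14 above 0, and 0.11 for neuron factors, with 15 of 19 above 0. The ventral median moved to 0.41 without the 3 embryos low in Afp, and the intermediate median to 0.099 without KOAC10-5 and 0.21 without KOAC10-2. Among factors classed as having no other major site of expression, 6 of 13 had an unadjusted p under 0.05 and the median was 0.28. Among those classed with other sites 3 of 20 did and the median was 0.12. This split is mixed with stage. Most factors without another major site were progenitor factors, and most of those with other sites were neuron factors. The 3 with other sites, Pax3, Irx3 and Foxa2, were all progenitor factors. The part of stage in this contrast was not tested. The classes are approximate: Isl2, one of the 6, is also a factor of sensory neurons, and its relative Isl1 was classed with other sites.

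**Figure D2:**
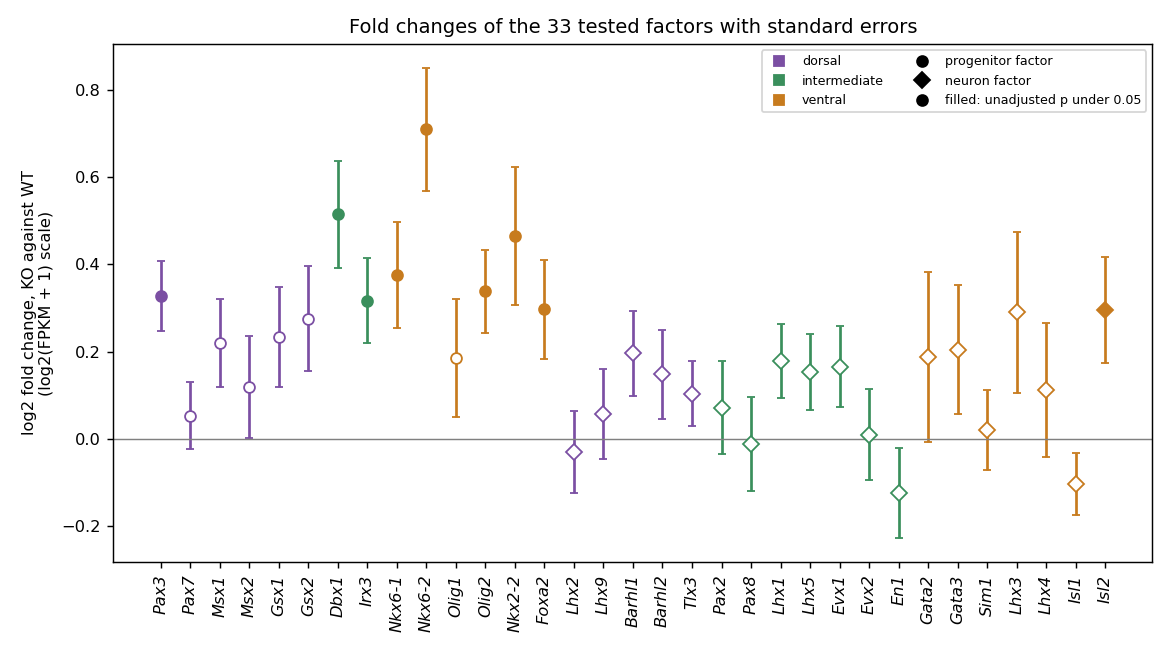
KO against WT log2 fold change for the 33 tested factors (y axis, on the log2(FPKM + 1) scale), with bars of 1 standard error from limma. Colour gives the domain, circles are progenitor factors, diamonds neuron factors, and filled symbols have an unadjusted p under 0.05. The highest point is Nkx6-2 at 0.71, and the only filled diamond is Isl2 at 0.30.

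Ventral progenitors are set up by Sonic hedgehog, and 5 of the 6 ventral progenitor factors had an unadjusted p under 0.05. With the series of the embryo names as a block, Nkx6-2 and Olig2 kept it and Nkx6-1, Nkx2-2 and Foxa2 did not. Nkx6-2, a repressor of the p1 and neighbouring ventral domains that backs up Nkx6-1, had the largest fold change of the tested factors. The KO embryos KOAC8-6, KOAC10-5 and KOAC10-8 had 5.54, 6.95 and 7.71 FPKM, against 3.24, 3.44, 3.49 and 4.76 FPKM in the WT group of KOAC8-1, KOAC10-7, KOAC9-1 and KOAC10-2. All KO values exceeded the highest WT value, that of KOAC10-2. The means were 6.74 ± 1.10 FPKM (SD, n = 3) and 3.73 ± 0.695 FPKM (SD, n = 4), and the log2 fold change was 0.71 (SE 0.14, limma adjusted p = 0.274). Nkx6-2 (chr7:139579376-139582797, minus strand in the GENCODE M21 annotation of GRCm38, as for the other genes) shares 10.71% of its 50-base stretches with Inpp5a on the other strand, which the unstranded libraries cannot separate. Inpp5a averaged 18.1 ± 1.37 FPKM (SD, n = 3) in the KO group against 18.3 ± 0.615 FPKM (SD, n = 4) in the WT group, and its log2 fold change was -0.02 (SE 0.06, limma adjusted p = 0.938).

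Nkx6-1, which is needed for motor neuron and V2 progenitors, stood in the same embryo order at 6.51, 5.75 and 8.05 FPKM in KO and at 4.64, 4.60, 4.77 and 5.83 FPKM in WT embryos. Here KOAC10-5 fell just under the WT embryo KOAC10-2, and the other 2 KO embryos lay above all WT embryos. Its log2 fold change was 0.38 (SE 0.12, limma adjusted p = 0.354). Olig2 (chr16:91225457-91228677, plus strand), the basic helix-loop-helix factor of motor neuron progenitors, stood at 4.44, 5.16 and 5.46 FPKM in KO and 3.41, 3.85, 3.52 and 4.26 FPKM in WT embryos. The groups did not overlap, and the log2 fold change was 0.34 (SE 0.10, limma adjusted p = 0.317). Its relative Olig1, which comes on in the same domain, was low, at 0.892 to 1.61 FPKM in KO and 0.703 to 1.09 FPKM in WT embryos, with a log2 fold change of 0.19 (SE 0.14) and overlapping groups.

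The 2 most ventral factors followed. Nkx2-2, the factor of the p3 domain next to the floor plate, stood at 5.57, 5.08 and 5.61 FPKM in KO and at 3.61, 2.73, 3.47 and 5.10 FPKM in WT embryos. The WT embryo KOAC10-2 reached the level of the KO embryos, and the other WT embryos stayed below them. The log2 fold change was 0.46 (SE 0.16, limma adjusted p = 0.365). Nkx2-2os, on the opposite strand, shares 8.04% of the 50-base stretches of Nkx2-2 and was at most 0.0616 FPKM. Foxa2 (chr2:148042877-148046969, minus strand), the forkhead factor of the floor plate, notochord and gut endoderm, stood at 2.91, 2.65 and 3.74 FPKM in KO and at 2.31, 2.40, 2.01 and 2.58 FPKM in WT embryos. The groups did not overlap, although KOAC10-5 lay only just above KOAC10-2, and the log2 fold change was 0.30 (SE 0.11, limma adjusted p = 0.403). Without KOAC10-8 it was 0.19 (limma adjusted p = 0.699).

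All 3 intermediate progenitor factors had KO values above every WT value. Dbx1 (chr7:49631499-49636849, minus strand), the factor of the p0 domain that gives rise to V0 interneurons, had KO values of 13.4, 16.4 and 18.8 FPKM and WT values of 10.3, 10.67, 10.21 and 12.8 FPKM. The KO mean was 16.2 ± 2.68 FPKM (SD, n = 3), the WT mean 10.99 ± 1.196 FPKM (SD, n = 4), and the log2 fold change 0.52 (SE 0.12, limma adjusted p = 0.286). Irx3 (chr8:91798525-91802067, minus strand), an Iroquois factor of the progenitors dorsal to the motor neuron domain that is also expressed in limb and heart, stood at 20.4, 22.4 and 25.1 FPKM in KO and at 17.2, 18.4, 16.0 and 20.2 FPKM in WT embryos. The lowest KO value, KOAC8-6, was only just above the highest WT value, KOAC10-2, and the log2 fold change was 0.32 (SE 0.10, limma adjusted p = 0.347). Its opposite-strand neighbour Irx3os, with which it shares 2.72% of its 50-base stretches, stood at 1.23 to 1.82 FPKM.

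Dbx2 (chr15:95623563-95655960, minus strand), a relative of Dbx1 with a broader intermediate domain, had the largest ratio of all 35 factors at the lowest level. It stood at 1.71, 1.53 and 1.63 FPKM in KO embryos and at 0.190, 0.238, 0.803 and 0.279 FPKM in WT embryos. The 3 KO embryos were close to one another, and KOAC9-1 stood apart from the other WT embryos, still below all KO embryos. The KO mean of 1.62 ± 0.0918 FPKM (SD, n = 3) was 4.30 times the WT mean of 0.378 ± 0.286 FPKM (SD, n = 4). The log2 difference was 0.95 with a pseudocount of 1, 2.01 with 0.1 and 2.31 with 0.01. Where no filter on low values was used, limma gave Dbx2 an adjusted p of 0.259.

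Of the 6 dorsal progenitor factors, which lie under the influence of roof plate signals, Pax3 alone had an unadjusted p under 0.05. Pax3 (chr1:78101267-78197134, minus strand), a paired-box factor of the dorsal neural tube, neural crest and dermomyotome, stood at 13.9, 12.7 and 15.6 FPKM in KO and at 11.2, 10.4, 10.6 and 11.8 FPKM in WT embryos. The groups did not overlap, and the log2 fold change was 0.33 (SE 0.08, limma adjusted p = 0.286). Its relative Pax7, which shares much of that expression, was at 4.53 to 5.13 FPKM in KO and 4.45 to 5.16 FPKM in WT embryos, with a log2 fold change of 0.05 (SE 0.08).

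Msx1 and Msx2, homeobox targets of BMP in the roof plate, limb and face, had log2 fold changes of 0.22 (SE 0.10) and 0.12 (SE 0.12), with overlapping groups. The Msx2 values were 10.22 to 14.8 FPKM in KO and 10.46 to 11.3 FPKM in WT embryos, and its fold change without KOAC10-8 was -0.03. Gsx1 and Gsx2, which mark the progenitors of dorsal interneurons in the spinal cord and of the ventral forebrain, had log2 fold changes of 0.23 (SE 0.11) and 0.28 (SE 0.12). For both genes 2 of the 3 KO embryos exceeded every WT embryo.

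Neuron factors showed smaller differences. Isl2, a LIM homeodomain factor of motor neurons and sensory neurons, was the single neuron factor with an unadjusted p under 0.05. It stood at 9.41, 7.79 and 8.44 FPKM in KO and at 6.12, 7.24, 5.75 and 8.16 FPKM in WT embryos. KOAC10-5 lay below KOAC10-2, so the groups overlapped, and the log2 fold change was 0.30 (SE 0.12, limma adjusted p = 0.425). It was 0.07 within series 10. Its relative Isl1, which acts earlier in the same neurons and also in heart, limb and sensory ganglia, had KO values of 22.9, 20.05 and 22.5 FPKM and WT values of 22.5, 22.9, 22.9 and 25.8 FPKM, a log2 fold change of -0.10 (SE 0.07).

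The other motor neuron factors varied from embryo to embryo within each genotype. Lhx3, which acts with Isl1 to specify motor neurons and alone in V2 interneurons, was at 3.91, 2.28 and 3.43 FPKM in KO and 2.22, 2.81, 1.71 and 2.96 FPKM in WT embryos. Its log2 fold change was 0.29 (SE 0.18) overall and -0.03 within series 10. Lhx4 had a log2 fold change of 0.11 (SE 0.15), and -0.03 within series 10. Mnx1, a consolidator of motor neuron identity that is also expressed in the notochord and pancreas bud, was at 0.647 to 1.503 FPKM in KO and 0.785 to 1.14 FPKM in WT embryos. In all 5 motor neuron factors the KO embryo KOAC10-5 had the lowest KO value, and KOAC8-6 the highest.

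None of the 3 V2 and V3 interneuron factors had an unadjusted p under 0.05. Gata2 and Gata3, zinc finger factors of V2b interneurons that are also expressed in blood, had log2 fold changes of 0.19 (SE 0.19) and 0.20 (SE 0.15), and for both KOAC9-1 was the highest WT embryo. Sim1, the factor of V3 interneurons, had 0.02 (SE 0.09). Among V0 and V1 factors, Evx1, which fixes V0 identity, had 0.17 (SE 0.09), its neighbour Evx2 0.01 (SE 0.10) and En1, the marker of V1 interneurons and also of the midbrain and dermomyotome, -0.12 (SE 0.10). The En1 fold change was the lowest of the 33 factors, with KO values of 3.30 to 4.14 FPKM and WT values of 3.53 to 4.70 FPKM. Dbx1 was higher in KO than in every WT embryo, and Evx1, which marks the neurons of its domain, was at 2.02 to 2.15 FPKM in KO and 1.54 to 2.06 FPKM in WT embryos, with overlap.

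The interneuron factors Pax2, Pax8, Lhx1 and Lhx5, which mark inhibitory neurons and, except Lhx5, the mesonephros, had log2 fold changes of 0.07 (SE 0.11), -0.01 (SE 0.11), 0.18 (SE 0.09) and 0.15 (SE 0.09). Their groups overlapped. Dorsal interneurons are marked by Lhx2, Lhx9, Barhl1 and Barhl2 (dI1 commissural neurons) and Tlx3 (excitatory dI3 and dI5 neurons). Their log2 fold changes were -0.03 (SE 0.09) for Lhx2, 0.06 (SE 0.10) for Lhx9, 0.20 (SE 0.10) for Barhl1, 0.15 (SE 0.10) for Barhl2 and 0.10 (SE 0.07) for Tlx3, none with an unadjusted p under 0.05.

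The mean log2(FPKM + 1) over the genes of a class gave each embryo a level, expressed relative to the mean of the WT embryos. For intermediate progenitors this level was 0.48, 0.58 and 0.72 in the KO embryos KOAC8-6, KOAC10-5 and KOAC10-8, and -0.11, -0.04, 0.05 and 0.09 in the WT embryos KOAC8-1, KOAC10-7, KOAC9-1 and KOAC10-2. For ventral progenitors it was 0.29, 0.38 and 0.51 in KO and -0.06, -0.10, -0.05 and 0.21 in WT embryos. For dorsal progenitors it was 0.17, 0.14 and 0.30 in KO and -0.06, -0.05, -0.03 and 0.13 in WT embryos. KOAC10-2 was the highest WT embryo in all 3 progenitor classes, and KOAC10-8 the highest KO embryo. The intermediate progenitor class holds 3 genes, and 1 of them, Dbx2, was left out of the test at a mean of 0.912 FPKM. Its log2 difference of 0.95 stood beside 0.52 for Dbx1 and 0.32 for Irx3, so Dbx2 raised the class level. Over the 20 neuron factors the KO range of 0.08 to 0.12 overlapped the WT range of -0.07 to 0.08.

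**Figure D3:**
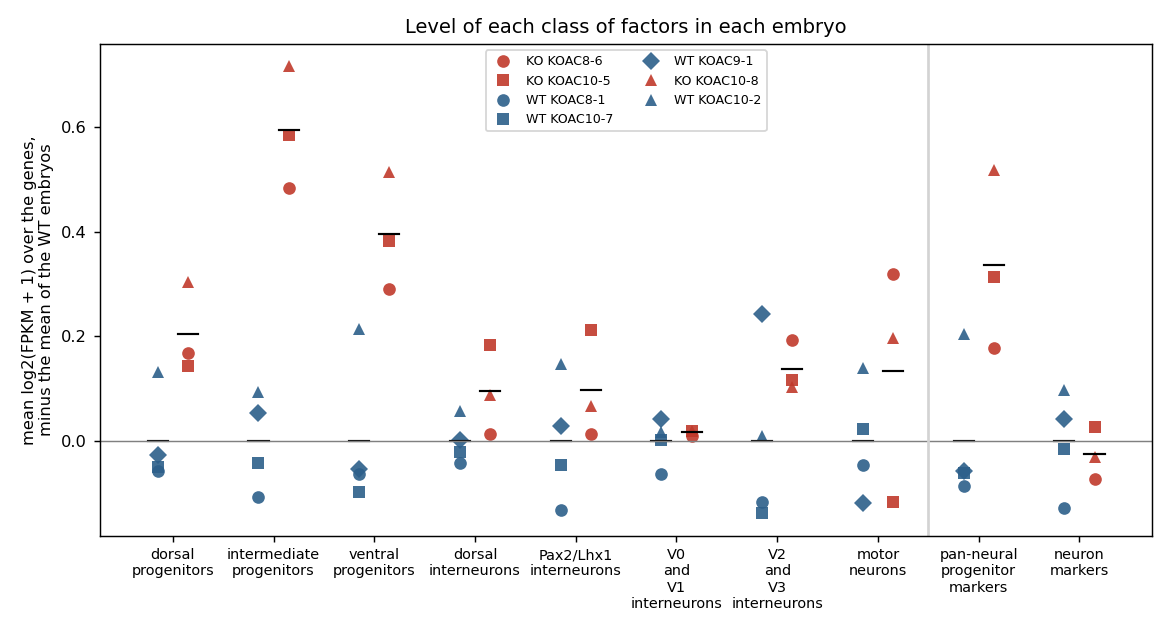
Mean log2(FPKM + 1) of each class of factors in each embryo, relative to the mean of the WT embryos (y axis), with 2 marker lists at the right for comparison. KO embryos are red, WT embryos blue, and black lines are group means. The intermediate progenitor class holds 3 genes, 1 of them Dbx2, which averaged under 1 FPKM. The 3 progenitor classes have all KO embryos above all WT embryos, the neuron classes overlap, and the pan-neural progenitor markers are ordered much as the progenitor classes are, with KOAC10-8 highest and KOAC10-2 highest among WT.

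Most of the listed progenitor genes that carry no position along this axis moved with the factors. The 7 pan-neural progenitor markers (Sox1, Sox2, Sox3, Nes, Fabp7, Hes5 and Msi1) showed a median of 0.38 in log2 fold change. Of these 7, 6 had an unadjusted p under 0.05, all higher in KO embryos, against 5.27% of all genes tested. The exception was Fabp7, at -0.02 (SE 0.08). KO and WT values overlapped for Fabp7, Sox1, Sox3 and Hes5, and not for Sox2, Nes and Msi1. In limma 0 of the 7 had an adjusted p under 0.05. Sox2, the general neural progenitor factor, averaged 61.5 ± 11.4 FPKM (SD, n = 3) in the KO group against 43.5 ± 4.76 FPKM (SD, n = 4) in the WT group. The summed level of the 7 markers was 755 to 868 FPKM in KO and 675 to 775 FPKM in WT embryos. Their mean log2 level was 5.96, 6.10 and 6.30 in KO and 5.70, 5.72, 5.73 and 5.99 in WT embryos, a difference of 0.34 (exact permutation test, two-sided, p = 0.114). By contrast, 0 of 10 neuron markers had an unadjusted p under 0.05, and their median log2 fold change was -0.04.

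The positional factors were therefore also set against the pan-neural level of the same embryo, as a covariate and, in a step added after the data had been seen, as a ratio. With that level as a covariate in limma, 1 of the 33 factors, Nkx6-2, kept an unadjusted p under 0.05, with a log2 fold change of 0.27, and the medians of the dorsal, intermediate and ventral factors became 0.00, 0.00 and 0.10. Because the pan-neural level was higher in KO embryos, the log2 ratio of a gene to it was lower in KO for 96.0% of all genes tested, with a median difference of -0.33. Of the 33 tested factors 28 were lower and 5 higher. Over all 35 factors, tested or not, the median difference was -0.02 for the 15 progenitor factors and -0.23 for the 20 neuron factors. The ratio was higher in KO without overlap in 2 tested factors, Nkx6-2 (by 0.37) and Dbx1 (by 0.18), against 0.162% of all genes. It was lower without overlap in 7, namely Pax7, Lhx2, Pax2, Pax8, Lhx5, En1 and Isl1, which is 21.2% of the tested factors against 33.5% of all genes. Each of these 9 had the smallest p that the exact permutation test can give, 0.0571.

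Paralogues that share a domain were compared with each other within each embryo, since depth and scaling cancel in a ratio. In 4 of the 14 pairs the log2 ratio did not overlap between genotypes, each with an exact two-sided permutation p of 0.0571 (0.2 after Benjamini-Hochberg adjustment over the pairs). The share without overlap among other pairs of genes was not computed. Pax3/Pax7, Dbx1/Dbx2 and Nkx6-1/Nkx6-2 each hold a factor whose own values did not overlap, so their ratios are not separate from that result. Pax3 over Pax7 was 2.81 to 3.03 in KO and 2.28 to 2.49 in WT embryos. Nkx6-1 over Nkx6-2 was 0.826 to 1.17 in KO and 1.22 to 1.43 in WT embryos, and KOAC10-5 was the one embryo with more Nkx6-2 than Nkx6-1. Isl1 over Isl2 was 2.43 to 2.67 in KO and 3.16 to 3.98 in WT embryos. Dbx1 over Dbx2 was 7.85 to 11.6 in KO and 12.7 to 54.2 in WT embryos, with the WT range set by Dbx2 values under 1 FPKM. The other 10 pairs overlapped, and among them Lhx1 over Lhx5 differed by 0.02 and Msx1 over Msx2 by 0.10 on the log2 scale. Stretches of 50 bases were not shared between the 2 genes of any of these pairs.

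**Figure D4:**
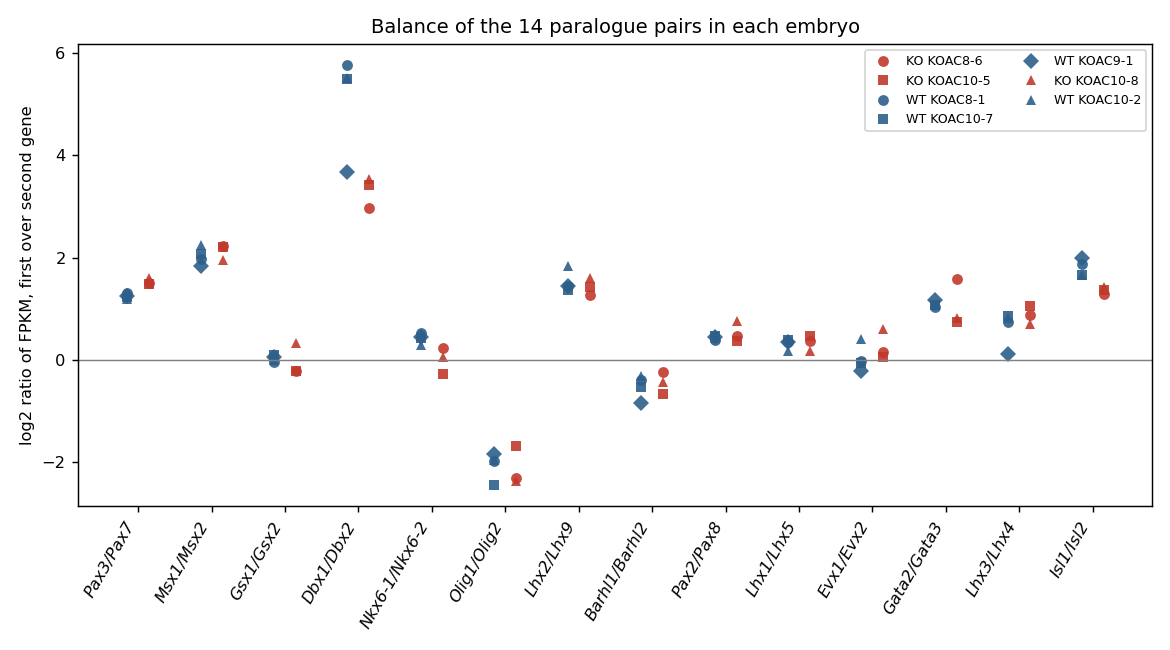
Log2 ratio of the FPKM of the first over the second gene in 14 paralogue pairs (y axis) for each embryo, KO in red and WT in blue. Red and blue points are apart for Pax3/Pax7, Dbx1/Dbx2, Nkx6-1/Nkx6-2 and Isl1/Isl2, and overlap for the other 10 pairs.

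The calls were compared between embryos of the same series in their names, since the meaning of the series is not stated. Series 8 holds 1 KO and 1 WT embryo, series 10 holds 2 of each, and series 9 holds 1 WT embryo. Of all 35 factors, 24 were higher in KO in both series that hold both genotypes, 14 of the 15 progenitor factors among them. The 9 factors with an unadjusted p under 0.05 were all of this kind, but they had been picked on the same embryos. The share of all genes higher in KO in both series was not computed. The median log2 difference of the progenitor factors was 0.30 in each series, and that of the neuron factors 0.17 in series 8 and 0.06 in series 10. With the series as a block in the limma fit, 7 factors had an unadjusted p under 0.05, of which Pax3, Dbx1, Irx3, Nkx6-2 and Olig2 were among the 9 and Gsx1 and Gata3 were not. The other 4 of the 9 lost it, with log2 fold changes of 0.36 for Nkx6-1, 0.44 for Nkx2-2, 0.25 for Foxa2 and 0.23 for Isl2. For this fit the share of all genes with an unadjusted p under 0.05 was not computed. When each embryo was left out in turn, 5 factors (Pax3, Dbx1, Irx3, Nkx6-2 and Olig2) kept an unadjusted p under 0.05 in all 7 fits, with log2 fold changes of 0.62 to 0.83 for Nkx6-2 and 0.41 to 0.64 for Dbx1. Nkx6-1 lost it without KOAC10-8 (0.26), Nkx2-2 without KOAC8-6 or KOAC10-8, and Foxa2 and Isl2 in 5 of the 7 fits each.

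Other factors of the same axis were counted from a list of 40 genes, of which 38 were tested. Their median log2 fold change was 0.12, and 4 were higher and 1 lower at an unadjusted p under 0.05. Of all genes tested, 5.27% were higher and 6.19% lower at that threshold. The 4 were Olig3 (0.60, SE 0.12), the factor of the dorsalmost interneuron progenitors, Pax6 (0.50, SE 0.11), a broad progenitor factor that bounds the Nkx2-2 domain, Sp8 (0.41, SE 0.13) and Onecut1 (0.40, SE 0.08), and for all 4 the lowest KO value exceeded the highest WT value. The limma adjusted p of these 4 was 0.274 for Olig3, 0.274 for Pax6, 0.347 for Sp8 and 0.274 for Onecut1. KO values lay above all WT values in 5.61% of all genes tested. Olig3 was at 7.37, 6.04 and 8.88 FPKM in KO and 4.40, 4.15, 4.44 and 5.10 FPKM in WT embryos.

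Of 25 genes of the signals that pattern the axis, 8 were higher and 2 lower at an unadjusted p under 0.05, and their median log2 fold change was 0.15. Of all genes tested, 5.27% were higher and 6.19% lower at that threshold. KO values lay above all WT values in 5.61% of all genes tested, and below them in 5.98%. On the dorsal side, the roof plate ligands Wnt1 (0.39, SE 0.11), Wnt3a (0.29, SE 0.07) and Wnt3 (0.18, SE 0.06) and the Wnt target Axin2 (0.15, SE 0.06) had KO values above all WT values, as did Smad7 (0.21, SE 0.08) and Id3 (0.13, SE 0.05), which respond to BMP. BMP ligands did not share that direction. Bmp6 (-0.19, SE 0.08, limma adjusted p = 0.455) had KO values below all WT values, while Gdf7 (-0.08, SE 0.13), Bmp4 (-0.04, SE 0.12) and Bmp7 (0.03, SE 0.08) overlapped, and so did the roof plate factor Lmx1a (-0.20, SE 0.12). These 5 were named after their values were seen. Among genes of the hedgehog pathway, the co-receptors Cdon (-0.25, SE 0.06) and Gas1 (-0.23, SE 0.06) had KO values below all WT values. The co-receptor Boc, named after its values were seen, overlapped (-0.09, SE 0.08). Shh, named here after its values were seen, was at 8.05, 6.65 and 10.02 FPKM in KO and 5.27, 5.47, 3.92 and 7.21 FPKM in WT embryos, with overlap (0.52, SE 0.19). Its targets Ptch1 (0.16, SE 0.07) and Gli1 (0.28, SE 0.13), likewise named after their values were seen, overlapped too and had no unadjusted p under 0.05. The smallest adjusted p of Wnt1, Wnt3a, Cdon and Gas1 in limma was 0.285, that of Cdon.

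Marker lists of the other tissues that express these factors were read beside them. Of all genes tested, 5.27% were higher and 6.19% lower in KO at an unadjusted p under 0.05. Dermomyotome and muscle markers, which share cells with Pax3, Pax7 and En1, were lower in KO at an unadjusted p under 0.05 in 5 of 10 genes (Myog, Myod1, Myl1, Meox1 and Actc1), with a summed level of 243 to 267 FPKM in KO and 304 to 379 FPKM in WT embryos. None of 10 limb bud markers passed that threshold. In the mesonephros list 1 of 6 tested genes was higher and 1 lower, in blood and endothelium 2 of 10 were higher, and in gut and pancreas 0 of 8. In the liver list 1 of 10 was lower, in sensory ganglia and neural crest 1 of 10 was lower, and in eye, ear and pituitary 1 of 8 was higher. The gene of the liver list was Ttr, transthyretin, which is also expressed in the choroid plexus and its roof plate precursors. It was at 14.4, 15.3 and 15.1 FPKM in KO and 46.4, 32.3, 53.1 and 35.3 FPKM in WT embryos, without overlap. The WT embryos KOAC10-7 and KOAC10-2, both low in Afp, had less Ttr than KOAC8-1 and KOAC9-1 but more than any KO embryo. The part of the liver in the Ttr values was not tested. The log2 fold change of Ttr was -1.40 (SE 0.17, limma adjusted p = 0.0891). The part of these tissues in the values of the 35 factors was not tested.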

How the data were processed

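Whole E11.5 embryos, 3 SLMAP3 KO and 4 WT, were sequenced with the TruSeq RNA v2 kit, which does not keep strand, and genotypes were taken from the labels. Nothing says that the embryos were of separate litters. The authors deposited an FPKM value for each gene in each embryo, and 0 FPKM columns were left unmapped. The submitters' processing notes name Salmon, DESeq2, MultiQC and GRCm38 without versions. The authors also deposited a mean signal per gene (normalized counts over all embryos), printed as their mean. The log2 fold changes with standard errors, and each gene's p-value, raw and adjusted, from the authors' own comparison were deposited too and were not used. Counts per embryo were not used here, so depth is known only as relative depth, and no counting interval is given.

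On the log2(FPKM + 1) scale, genes averaging 1 FPKM or more across the 7 embryos entered limma 3.58.1 in R 4.3.3 (lmFit, eBayes with trend), without a covariate, with Benjamini-Hochberg adjustment over all 16095 genes and a threshold of 0.05. Single values were compared with exact two-sided permutation tests (scipy 1.17.1). Of the steps, only the limma fit was tested on simulated data, with fold changes larger than those of the tested factors.

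The 35 genes, the marker lists and the pairs were chosen with earlier results of these data known. All 35 are named. Full statistics are given for those with no overlap or an unadjusted p under 0.05, and other lists are given by counts, with names only for genes that met both, except where stated. Alternatives were other pseudocounts, filters, scalings, covariates, weights, the series of the embryo names as a block, and each embryo left out. Positions came from the GENCODE M21 annotation of GRCm38, and promoters from RefSeq on GRCm38.p6.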

Additional observations from a re-analysis of the deposited data

Results flagged for a closer look

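The WT group of 4 embryos was searched for single values that stood apart, with Dixon's gap ratio against its critical value for 4 samples. Of the 35 factors, 5 had such a value, where 1 in 20 groups, or 1.75 of 35, would by chance. In 4 of them the embryo was KOAC10-2, which had the highest WT value of Pax7 (gap ratio 0.928), Isl1 (0.883), Nkx6-1 (0.863) and Nkx6-2 (0.834). The fifth was Dbx2, for which KOAC9-1 was the highest WT embryo (0.855). The 35 factors come from the same 4 embryos and are not independent. The KO group of 3 embryos was not searched.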

How the results depend on the processing

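The number of factors with an adjusted p under 0.05 was 0 under all 24 alternatives, 3 of them added after the data had been seen. The number with an unadjusted p under 0.05, 9 as reported, became 1 with the pan-neural progenitor level as a covariate and 4 within series 10, and ran from 7 to 15 with each embryo left out, 15 without KOAC10-2. The fits with an embryo left out tested 33 to 35 factors. For the alternatives, the share of all genes with an unadjusted p under 0.05 was not computed. With the pan-neural covariate the medians became 0.0038 (dorsal), 0.0044 (intermediate) and 0.097 (ventral). With each embryo left out, the dorsal median ran from 0.14 to 0.22 and the intermediate median from 0.099 to 0.21, and the ventral median became 0.41 without the embryos with Afp under 10 FPKM. Of 797 combinations of a factor and an alternative, 35 were counted as a change of direction, in 14 factors, none of them among the 9. Dbx2 and Mnx1, left out of the test, were compared for size only, so any change of direction in them is not counted. With the pan-neural covariate these were Pax7 (-0.083), Msx1 (-0.020), Msx2 (-0.083), Gsx1 (-0.033), Pax2 (-0.21), Lhx5 (-0.026) and Gata3 (-4.4e-05). Within series 10 they were Lhx2 (0.016), Evx2 (-0.029), Lhx3 (-0.029) and Lhx4 (-0.029), and without the low-Afp embryos Lhx9 (-0.060), Evx2 (-0.041) and Sim1 (-0.066). With log2 Afp as a covariate they were Lhx2 (0.0016) and Pax8 (0.024), with the neuron level Lhx2 (0.0035), Pax8 (0.025) and Sim1 (-0.00061), with quality weights Pax2 (-0.0049), and with quantile normalization Pax8 (0.0071). With each embryo left out, Msx2 ran from -0.028 to 0.22, Lhx2 from -0.12 to 0.059, Lhx9 from -0.032 to 0.14, Pax8 from -0.11 to 0.047, Evx2 from -0.055 to 0.10 and Sim1 from -0.020 to 0.066. The cause of these changes was not tested. With the series of the embryo names as a block, 5 of the 9 kept an unadjusted p under 0.05 and 4 did not (Nkx6-1, Nkx2-2, Foxa2 and Isl2). Single embryos were not paired, since KO and WT embryos share no replicate number. Exact permutation tests of 3 against 4 embryos cannot go below 0.0571, and the libraries are of single embryos, so p-values measure the spread between these embryos.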
